A study of Mus musculus with 123 samples.

Results

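Cytosolic ribosomal protein genes were followed in mouse dorsal root ganglion (DRG) neurons after sciatic nerve transection (SNT), the cutting of the sciatic nerve at mid-thigh on one side. The members are every gene whose symbol is Rpl, Rps or Rplp followed by a number and at most 1 letter, which gave 80 of the 24134 genes in the table, 49 of the large and 31 of the small subunit. The pattern misses 8 ribosomal or ribosome-bound genes with other symbols, among them Rpsa, Fau, Rps3a1, Gnb2l1, Rpl36al, Rpl22l1 and Rpl7l1, which are described apart. Day-3 neurons came from 2-month-old F1 mice of a CAST/Eij male and a C57BL/6 female, females by the study's methods with no sex in the labels, with reads of 50 bp. They comprised 41 SNT-side and 18 control-side single neurons, kept by the authors out of 48 and 22, and 3 pooled libraries per side. Day-7 neurons came from 2-month-old C57BL/6 mice with reads of 75 bp, 33 of the SNT side (16 female, 17 male) and 14 of the control side (7 female, 7 male). The control side was the ganglion of the uninjured hind limb of the operated animals, so no neuron came from an unoperated mouse. Strain, read length, day, the mix of sexes and the types of neuron picked change together and cannot be told apart.

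The ribosome is built of ribosomal RNA and of proteins that are assembled into a small subunit, which reads the message, and a large subunit, which forms the peptide bond. Messages for these proteins are short and abundant. Many begin with a run of pyrimidines, the 5′ terminal oligopyrimidine (TOP) motif, through which the mTOR kinase and the binding protein Larp1 control their translation. A regrowing axon needs new protein, and part of that protein is made in the axon itself. Message levels in picked cell bodies, as measured here, say nothing about translation or about messages that lie in the axon.

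Start sites in the RefSeq table (build GRCm38.p6) were found for 59 members, with 71 starts in all. A TOP run, defined as C at the start followed by at least 4 more C or T, was present at 13 member starts (18.3%), against 2.51% of all 32851 starts in the table. The starts below are those of Rpl35 and Rpl28, the members with the highest and the lowest SNT-side ratio in day-3 neurons among those of at least 50 CPM (counts per 1e6 counts of the library), of Rps6, and of Rplp0 and Rpl24, which rose in the pools. Each line gives 10 bases before and 20 bases from the annotated start, with the pyrimidine run that begins at the start in capitals.
Rpl35 (chr2:39005112-39005141, minus strand): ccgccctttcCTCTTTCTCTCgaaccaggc
Rpl28 (chr7:4792955-4792984, plus strand): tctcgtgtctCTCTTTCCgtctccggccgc
Rps6 (chr4:86857348-86857377, minus strand): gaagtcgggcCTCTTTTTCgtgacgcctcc
Rplp0 (chr5:115559457-115559486, plus strand): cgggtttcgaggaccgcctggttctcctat
Rpl24 (chr16:55966265-55966294, plus strand): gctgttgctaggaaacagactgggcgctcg
Rpl35 and Rpl28 thus shared a TOP run and stood at opposite ends of the day-3 ratios. An annotated start need not be the base at which transcription begins in these neurons. In the window from 250 bases before to 50 after the start, read on both strands, CCGGAAG occurred at 35.2% of member starts and 8.86% of all starts, GGGCGG at 57.7% and 35.7%, and AAGATGG at 15.5% and 6.34%. TATAAA on the plus strand between 40 and 20 bases before the start was at 0 of 71 member starts and at 1.99% of all starts. The 13 tested members with a TOP run had a median log2 difference of 0.44 in the pools, 0.17 in day-3 and 0.13 in day-7 neurons, and the 43 with a matched start but no such run had 0.31, 0.12 and 0.20.

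Values are expected counts estimated by the authors, scaled here to CPM. Kept neurons held 261351 to 1849130 counts, and the 3 libraries per side held 563462 to 839135 (control) and 1148849 to 2003817 (SNT). Each pooled library is a part of 1 lysate per side, for which labels and methods give different numbers of neurons. Its p-values therefore measure technical spread between parts of 2 lysates and not the spread between animals. The sides of the pools follow the column names. The identifiers given under the header assign the 6 columns to the opposite sides, and by them every pooled difference would change sign. Atf3, a transcription factor induced by axon injury, was at 1453 to 1690 CPM in the SNT pools and 7.78 to 20.4 in the control pools. No animal is named for any neuron, so the neurons of a side and day count as 1 sample, and their differences carry no test. The 10 neuronal markers listed were above 1 CPM on average in every group. Summed CPM of 10 satellite glia and Schwann cell markers were 6394 to 7227 in the SNT pools and 13040 to 15802 in the control pools. Medians of that sum were 3945 and 3847 CPM in day-3 and 1507 and 5413 CPM in day-7 neurons, SNT and control side. Genes that mark neuron types, described below, differed between the pools too. Nefh was at 674 ± 41.7 CPM in the SNT pools and 297 ± 16.2 CPM in the control pools (SD). P2rx3 was at 315 ± 12.9 and 740 ± 40.1 CPM, and Calca at 844 ± 79.0 and 1522 ± 185 CPM. In day-3 neurons the log2 ratios of these 3 genes, SNT over control side, were -0.38, 0.15 and -1.46. The parts of glial RNA and of neuron type in the differences given here were not tested.

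The 80 members together took about 1% of all counts in every group. In day-3 neurons their share was 1.22% ± 0.267 (SD over 41 cells) on the SNT side and 1.10% ± 0.203 (18 cells) on the control side. In day-7 neurons it was 1.05% ± 0.187 (33 cells) and 0.967% ± 0.157 (14 cells). The SNT-side mean was thus higher by 0.15 and 0.12 on the log2 scale, a difference smaller than the SD over cells on either side. Of the SNT-side cells, 3 of 41 at day 3 and 5 of 33 at day 7 lay above every control-side cell, and 3 and 1 lay below every one. On median-of-ratios scaling the day-7 difference was 0.20. The SNT pools held 0.866%, 1.001% and 1.15% and the control pools 0.872%, 1.01% and 0.841%, so the sides overlapped. Summed over cells, the share was 1.21% (95% Poisson interval 1.207 to 1.213) and 1.12% (1.114 to 1.124) at day 3, and 1.05% (1.043 to 1.052) and 0.960% (0.954 to 0.966) at day 7. These intervals cover counting error only, and reads without molecular identifiers are not independent molecules.

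**Figure D1:**
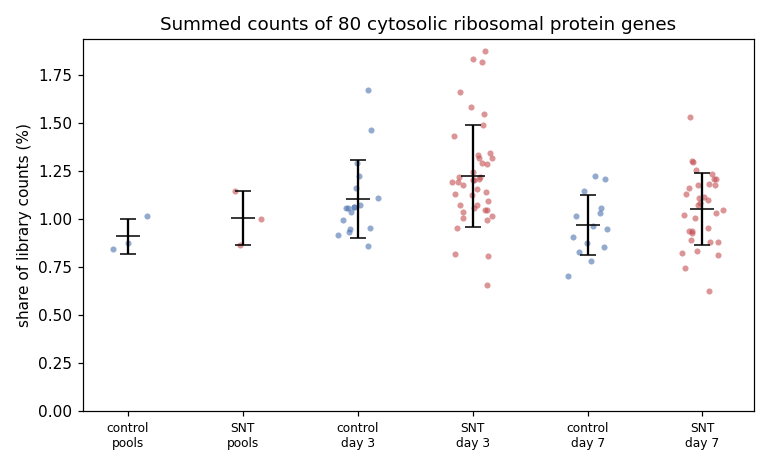
Share of each library's counts (%) taken by the 80 ribosomal protein genes, for pooled libraries and kept single neurons of the control side (blue) and SNT side (red). Points are libraries and bars the mean ± SD; SNT-side means are higher (1.22% against 1.10% at day 3, 1.05% against 0.967% at day 7), with ranges that overlap.

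At day 7 the share was 0.983% ± 0.177 (16 SNT-side cells) and 0.937% ± 0.0736 (7 control-side cells) in females, and 1.11% ± 0.178 (17 cells) and 0.996% ± 0.214 (7 cells) in males. The SNT side was thus higher by 0.069 in females and 0.16 in males on the log2 scale. SNT-side neurons with more Atf3 than any control-side neuron had a share of 1.27% ± 0.277 (30 cells) at day 3 and 1.12% ± 0.190 (12 cells) at day 7, and those within the control-side Atf3 range had 1.10% ± 0.195 (11 cells) and 1.01% ± 0.176 (21 cells). Ranges of these groups overlapped, at 0.804% to 1.87% and 0.654% to 1.335% at day 3, and 0.881% to 1.53% and 0.627% to 1.25% at day 7. Pearson r of the share with log2 Atf3 was 0.31 (rho 0.32) over the 41 SNT-side cells of day 3. It was 0.15 (rho 0.016) over the 33 of day 7. Over the 33 SNT-side neurons of day 7, whose animals are not named and whose values share each library's total, the member share went down with log2 Nefh, the heavy neurofilament of large myelinated neurons (Pearson r = -0.54, Spearman rho = -0.49, r = -0.41 without the 2 cells farthest from the median). Within sexes r was -0.54 over the 16 female and -0.75 over the 17 male cells. Among the 14 control-side neurons of that day r was 0.10, and among the 41 SNT-side and 18 control-side neurons of day 3 it was -0.17 and -0.11. Nefh had the largest r in size of the measures set against the share in the 33 SNT-side neurons of day 7. Others there were -0.48 (summed respiratory chain subunits), -0.44 (summed mitochondrial ribosomal proteins), 0.36 (log2 Calca) and 0.32 (log2 P2rx3). Calca and P2rx3 mark peptidergic and nonpeptidergic nociceptors. The relation was thus not particular to Nefh. The share went down with the number of genes above 1 CPM in day-3 neurons (r = -0.38 over 41 SNT-side and -0.28 over 18 control-side cells), and r with total counts was between -0.24 and 0.22 over the 4 groups.

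The members varied together from neuron to neuron. Pearson's r of a member's log2(CPM + 1) with that of the sum of all other members had a median of 0.78 and 0.70 in day-3 neurons (SNT and control side) and 0.67 and 0.74 in day-7 neurons, over 77 members in each group. The values share each library's total, so part of this likeness can be set by scaling. Rps9 (r = 0.93) was closest to the rest in the 14 control-side neurons of day 7, and Rpl13 (r = 0.91) in the 41 SNT-side neurons of day 3. Some members had a low r. At day 3 the lowest r was that of Rps27 (-0.175) on the SNT side and of Rps4l (-0.269) on the control side. Rps27 had a mean of only 6.89 CPM on that SNT side and 11.5% whole values over all libraries. It was listed at 0 in 27 of 106 kept neurons, and Rps4l in 10. The part of zeros and of shared reads in these r was not tested. At day 7 the lowest r was that of Rpl3 on the SNT side and of Rps3 (-0.49) on the control side. Rpl3, which reaches into the peptidyl transferase centre, had r of 0.36 and 0.049 at day 3 and -0.089 and -0.37 at day 7, SNT and control side. Rplp0, the stalk protein that anchors Rplp1 and Rplp2, had 0.41, 0.29, 0.11 and -0.43 in the same order.

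In the pools, 77 members passed the filter of a mean of at least 1 CPM, and Rpl3l, Rpl10l and Rpl39l, listed at 0 in all 6 libraries, did not. Of the 77, 14 were called higher on the SNT side at an adjusted p below 0.05 (edgeR quasi-likelihood test with Benjamini-Hochberg adjustment over 13509 genes), which is 18.2% of them against 14% of all genes tested. None was called lower, against 10.8% of all genes, and none was lower at an unadjusted p below 0.05. By other tools, DESeq2 called 6 higher and 0 lower and limma-trend 9 higher and 0 lower. With library size alone as the scaling, edgeR called 6 higher and 1 lower (Rpl3), and the median of all genes shifted from 0.018 to -0.14. The members' median log2 difference was 0.28, with 70 of 77 above 0, and that of all genes 0.018. The share called higher is near the background, so the count alone sets the members little apart from other genes. Every SNT library was above every control library for 15 members (21.1% of all genes), and every SNT library was below for Rpl3 alone (16.6% of all genes). With a log2 difference beyond 1 in addition, 2 members were higher, Rps4l and Rpl26, against 8.85% of all genes.

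Among the called members with sides that did not overlap, Rplp0 was the most abundant. It stood at 635, 643 and 683 CPM in the SNT pools and at 357, 408 and 349 CPM in the control pools, after the TMM scaling that is used for all pooled CPM here. All SNT pools were high and all control pools low, with a log2 difference of 0.82 ± 0.13 (SE, n = 3 libraries per side, adjusted p = 4.88e-06 in edgeR's quasi-likelihood test). Its partners in the stalk, which recruits elongation factors to the ribosome, were Rplp1 (127 ± 34.4 and 119 ± 24.9 CPM, SD) and Rplp2 (64.6 ± 21.2 and 42.5 ± 6.91 CPM), both without a call (adjusted p = 0.785 and 0.0836, edgeR). The stalk genes were therefore not all called, and a difference between Rplp0 and the others was not tested.

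Rpl24, a protein of the large subunit at the bridge to the small one, was at 172, 172 and 196 CPM in the SNT pools and at 104, 109 and 67.2 CPM in the control pools. Rpl35, which sits by the exit of the peptide tunnel, was at 134, 186 and 210 CPM and at 77.8, 113 and 94.1 CPM. Both were high in every SNT library, by 0.93 ± 0.19 and 0.89 ± 0.19 on the log2 scale (SE, adjusted p = 0.000146 and 0.000459, edgeR). Rps2, a small-subunit protein at the entry of the message channel, was at 220, 195 and 249 CPM and at 99.9, 145 and 146 CPM, higher by 0.77 ± 0.17 (adjusted p = 0.000668, edgeR). Rps3, its neighbour at that entry, was at 180, 203 and 230 CPM and at 145, 165 and 116 CPM, higher by 0.51 ± 0.17 (adjusted p = 0.0215, edgeR), a call lost under 5 of the alternatives. Rps4l, a gene closely similar to Rps4x, was low in the pools, at 19.97, 36.9 and 38.9 CPM in the SNT pools and 5.19, 6.79 and 8.40 CPM in the control pools, a log2 difference of 2.23 ± 0.43 (adjusted p = 0.000108, edgeR). In single neurons of that day it did not stand higher on the SNT side, at 69.98 ± 75.7 CPM (SD over 41 cells) and 75.7 ± 70.1 CPM (18 cells), a log2 ratio of -0.11. Rps4x itself was at 218 ± 17.4 and 181 ± 33.4 CPM (SD) and had no call (adjusted p = 0.271, edgeR). Reads of near-identical copies are shared out by estimation, so the division between Rps4l and Rps4x is uncertain.

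**Figure D2:**
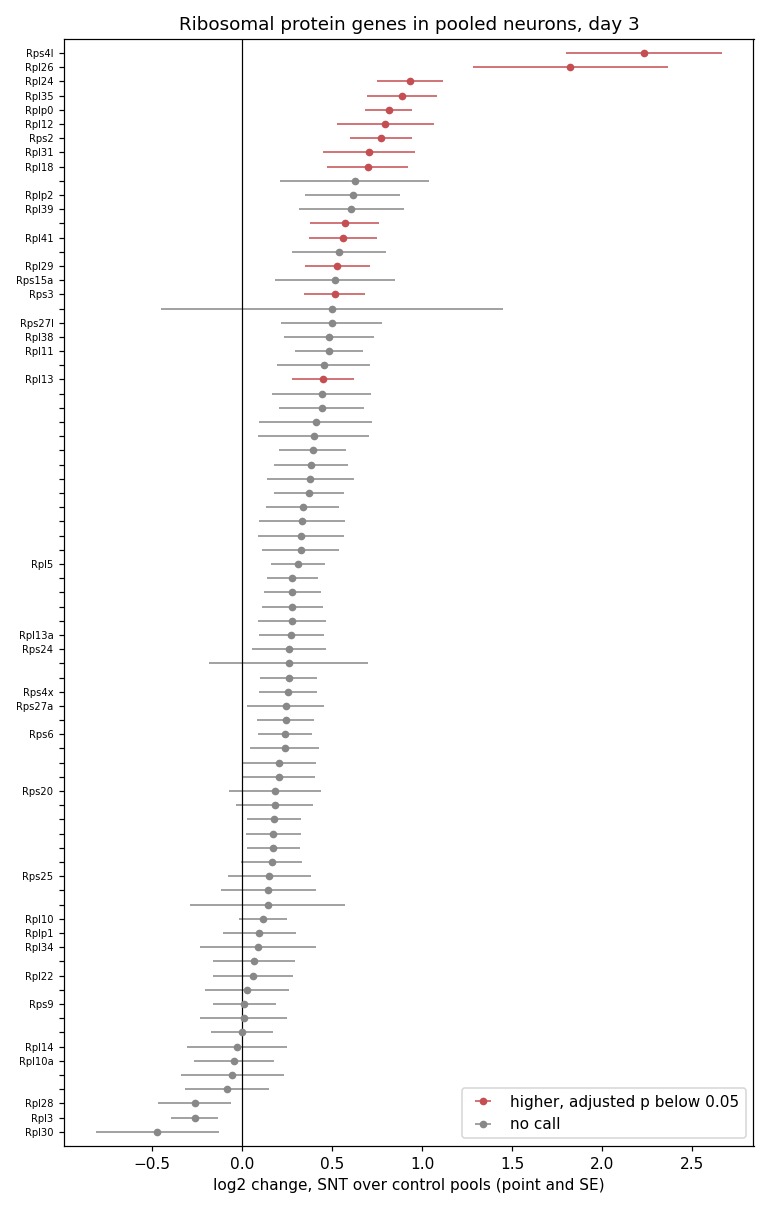
Log2 difference with its SE (x axis) of each of 77 ribosomal protein genes (y axis, in order of the difference, with the genes described in the text named) between 3 SNT and 3 control pooled libraries, in red where called higher. Of 77 genes, 70 lie to the right of 0 and 14 are called, with Rpl3, Rpl28 and Rpl30 at the left end.

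Of the other called members, Rpl18 and Rpl29 did not overlap between sides, and Rpl12, Rpl13, Rpl26, Rpl31 and Rpl41 were among those that did. Rpl41, the smallest protein of the ribosome, was at 206, 301 and 448 CPM in the SNT pools and 188, 267 and 192 CPM in the control pools, and its call (log2 0.56 ± 0.19, adjusted p = 0.0241, edgeR) was lost when the highest SNT library was left out (adjusted p = 0.449). Rpl26 was at 27.5, 20.3 and 50.6 CPM in the SNT pools and was listed at 0, at 24.9 CPM and at 0 in the control pools (adjusted p = 0.0104, edgeR). It was also listed at 0 in 35 of 106 kept neurons, whereas 73 of the 80 members were at 0 in none of them, so its call rests on zeros that recur across the groups. Rpl3 was at 429, 473 and 493 CPM in the SNT pools and 501, 592 and 583 CPM in the control pools, with every SNT library below, a log2 difference of -0.26 ± 0.13 and no call (adjusted p = 0.144, edgeR).

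Other members picked by role, apart from Rps3 and Rpl41 above, had no call in the pools. Rps6, the substrate of the S6 kinases downstream of mTOR, was at 275 ± 35.8 CPM in the SNT pools and 234 ± 18.3 CPM in the control pools (SD, adjusted p = 0.275, edgeR). Rpl5 and Rpl11, which as free proteins bind Mdm2 and so raise p53, were at 275 ± 35.8 and 142 ± 17.3 CPM in the SNT pools and at 221 ± 5.41 and 101 ± 21.1 CPM in the control pools, with adjusted p of 0.133 and 0.0576 (edgeR). Rps27l, a p53-responsive copy of Rps27, was at 49.0 ± 13.3 and 34.5 ± 8.22 CPM (adjusted p = 0.209, edgeR). Rpl10, a late-joining protein near the peptidyl transferase centre, was at 398 ± 20.5 and 367 ± 23.9 CPM (adjusted p = 0.586, edgeR). Rpl22, Rpl38, Rps25, Rpl13a and Rps27a, which is made as a fusion with ubiquitin, had log2 differences of 0.060 to 0.48 and adjusted p of 0.166 to 0.884 (edgeR). Rpl39, a small protein of the peptide tunnel, differed by 0.61 ± 0.29 (adjusted p = 0.131, edgeR).

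In day-3 neurons 60 of 77 members had an SNT-side mean above the control-side mean, against 46.9% of 13663 genes of at least 1 CPM, and their median log2 ratio of mean CPM + 1 was 0.14, against -0.040 over all genes. Few moved far, with 4 above 0.5 and 0 below -0.5, where 16.2% and 18.7% of all genes lay. Here, at day 7 and in the pools, all genes were not matched to the members for abundance and include genes near 1 CPM. Rpl35 had the largest ratio among members of at least 50 CPM, at 0.75. It ranged from 79.4 to 445 CPM (median 204) over 41 SNT-side cells and from 75.0 to 229 CPM (median 129) over 18 control-side cells, with 17 SNT-side cells above every control-side cell. Rpl24 (0.68) ranged from 84.5 to 446 CPM (median 207) and from 89.3 to 226 CPM (median 122). Rplp0 (0.53) ranged from 257 to 956 CPM (median 520) and from 242 to 714 CPM (median 336), so ranges of the 2 sides overlapped for all 3 genes. Rps3 (0.48) ranged from 104 to 437 CPM (median 225) and from 115 to 338 CPM (median 175). Rpl15, with a smaller ratio (0.36), had 23 of 41 SNT-side cells above every control-side cell, more than Rpl35. Such counts were not set against all genes.

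The lowest ratios of that day were smaller in size. Rpl28, a large-subunit protein, had a log2 ratio of -0.35. Its SNT-side cells ranged from 48.3 to 183 CPM (median 93.6) and its control-side cells from 76.2 to 217 CPM (median 133). Rpl3 followed at -0.21, with 16 of 41 SNT-side cells below every control-side cell and 4 above. Its spread was wider on the SNT side (124.8 to 689 CPM, median 404) than on the control side (373 to 600 CPM, median 484). Rpl10a (-0.14), with 18 SNT-side cells below every control-side cell and 4 above, and Rps20 (-0.12) were next.

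**Figure D3:**
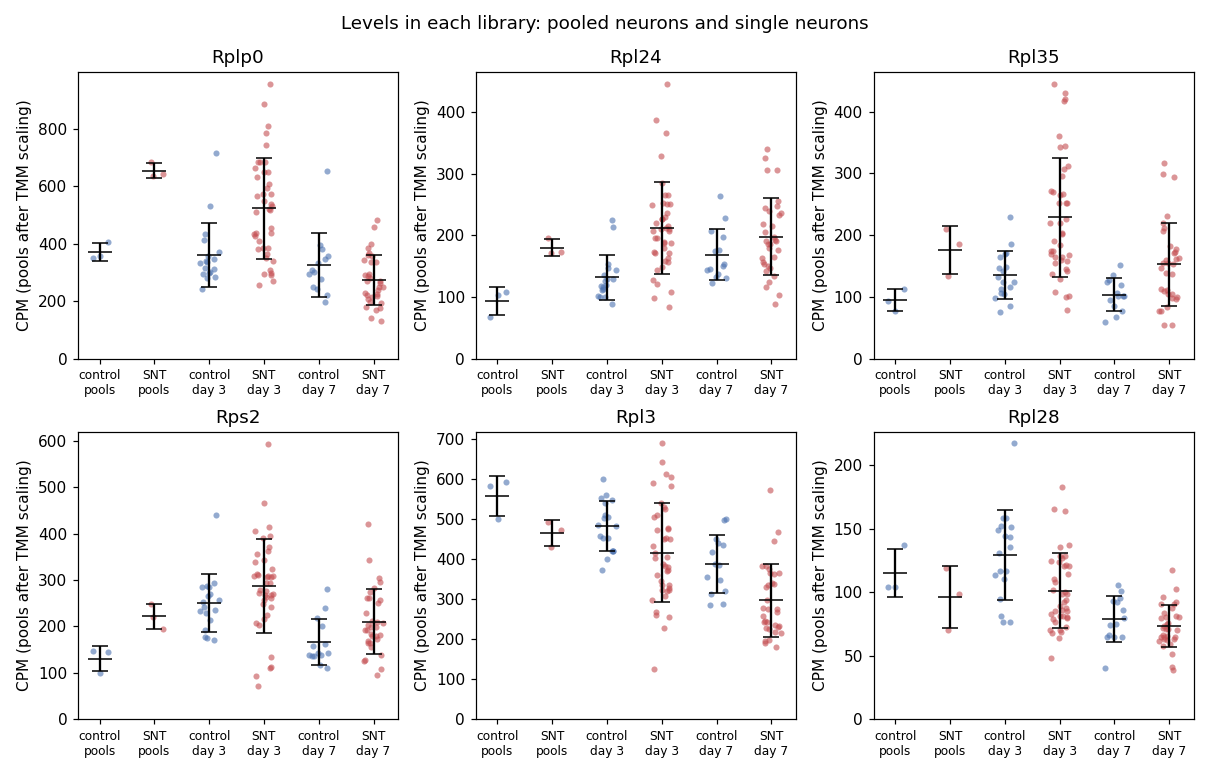
CPM of 6 ribosomal protein genes in each pooled library (TMM-scaled) and each kept single neuron, control side in blue and SNT side in red, with the mean ± SD in black. Rplp0 is higher on the SNT side in the pools and at day 3 and lower at day 7 (log2 ratio -0.25), Rpl24 and Rpl35 have higher SNT-side means throughout, and Rpl3 and Rpl28 lower ones.

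In day-7 neurons 61 of 77 members had a higher SNT-side mean, against 47.1% of 13320 genes, with a median log2 ratio of 0.19 against -0.035. Above 0.5 lay 6 members and below -0.5 lay 1, against 16.9% and 15.6% of all genes. In both sexes taken apart, 50 of the 77 were above 0 and 13 below. Rpl39 (0.57, with 0.27 in females, 0.86 in males and 0.31 by medians) ranged from 15.9 to 228 CPM (median 94.9) over 33 SNT-side cells and from 20.9 to 128 CPM (median 76.3) over 14 control-side cells. Rpl35 was again among the highest, at 0.55 (0.52 and 0.59), with 17 of 33 SNT-side cells above every control-side cell. Rps24 (0.45) had 19 such cells.

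Rpl3 was lower on the SNT side at day 7 as well, at -0.38 (-0.42 in females and -0.36 in males). SNT-side cells ranged from 181 to 573 CPM (median 275) and control-side cells from 286 to 501 CPM (median 387), with 19 of 33 SNT-side cells below every control-side cell and 1 above. Rplp0 had ratios of opposite sign on the 2 days. At day 7 its log2 ratio was -0.25 (-0.14 in females and -0.35 in males) and -0.080 in cells of at least 500000 counts, where at day 3 it was 0.53, or 0.35 with the outlier cells. SNT-side cells of day 7 ranged from 131 to 481 CPM (median 264) and control-side cells from 196 to 651 CPM (median 305). That difference between days was not tested, and it cannot be told apart from strain, read length and the types of neuron picked. Rpl26 (-0.50, or -0.30 in cells of at least 500000 counts and -0.90 by medians) was listed at 0 in 11 of 33 SNT-side and 2 of 14 control-side cells.

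Set side by side, 46 of the 77 members were above 0 in the pools, at day 3 and at day 7, and 2, Rpl3 and Rpl28, were below 0 in all 3. Taken alone, the 3 comparisons had 70, 60 and 61 of the 77 above 0. The share of all genes above 0 in all 3 was not computed. Of the 14 members called in the pools, 12 were above 0 in day-3 neurons and 10 in day-7 neurons. Of all 77 members 77.9% and 79.2% were, and agreement between the comparisons was not tested. Between the days, 11 members were above 0 at day 3 and below at day 7, and 12 the reverse. By subunit, all 31 small-subunit members and 39 of 46 large-subunit members were above 0 in the pools, with medians of 0.33 and 0.28. In day-3 neurons the counts were 26 of 31 and 34 of 46 (medians 0.16 and 0.14), and in day-7 neurons 29 of 31 and 32 of 46 (medians 0.27 and 0.12). No test was made of the difference between subunits.

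**Figure D4:**
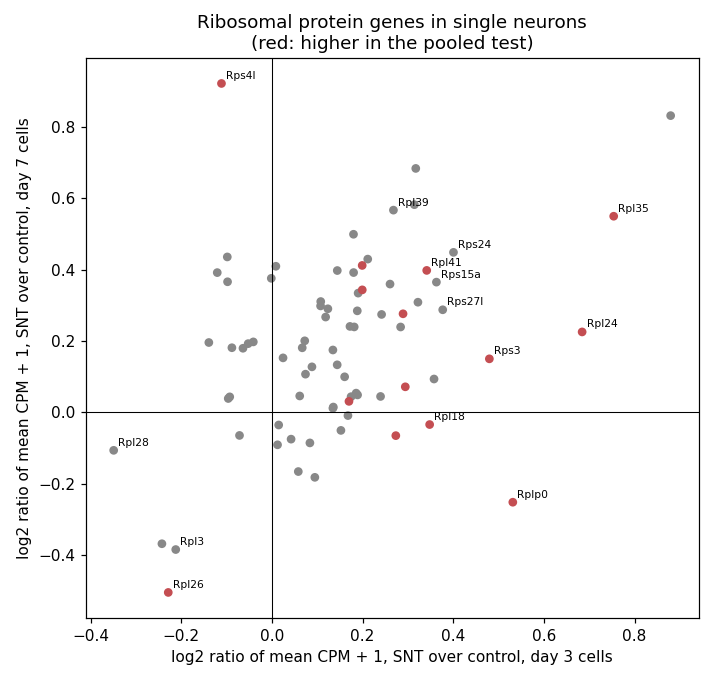
Log2 ratio of mean CPM + 1, SNT over control side, of 77 ribosomal protein genes in day-3 (x axis) and day-7 (y axis) neurons, in red where called higher in the pools. Most genes lie above 0 on both axes, Rpl35 far out on both, Rpl3 below 0 on both, and Rplp0 at 0.53 and -0.25.

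Some members differed more between the days than between the sides. Rpl14 was at 51.8 ± 24.2 CPM (SD over 18 cells) on the control side of day 3 and 171 ± 42.3 CPM (14 cells) on that of day 7, with 61.4 and 176 CPM on the SNT sides. Rps4l went the other way, at 75.7 ± 70.1 CPM and 12.7 ± 17.4 CPM on the control sides. Rps15a was at 37.9 and 69.0 CPM. On the SNT sides these were 69.98 and 24.9 CPM for Rps4l and 49.0 and 89.1 CPM for Rps15a. Each shift had the same direction on both sides, and for Rps4l it was -2.48 on the control and -1.45 on the SNT side on the log2 scale. Strain, read length, time and the types of neuron picked cannot be told apart in them. Mean Nefh was 336 and 438 CPM at day 3 and 3219 and 2954 CPM at day 7, SNT and control side. Mean P2rx3 was 891 and 803 CPM at day 3 and 79.2 and 154 CPM at day 7. Per length of the longest coding transcript in GENCODE M21, Rpl41 (602 CPM per kb), Rpl10 (540) and Rpl19 (407) were the highest members in control-side neurons of day 3, and Rpl19 (390), Rpl10 (388) and Rpl41 (363) in those of day 7.

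The copies known mainly from other tissues were almost absent. Rpl10l and Rpl39l, retrogene copies expressed in testis, were listed at 0 in 104 and 105 of 106 kept neurons, and Rpl3l, the copy of striated muscle, in 96. Many members have near-identical copies elsewhere in the genome. A value that is no whole number shows reads shared out between genes by estimation. Rpl34 had no whole value above 0 in any library, Rpl31 and Rplp2 had 7.317% whole values, Rps15a 9.76% and Rpl5 14.6%, and 19 members had under 50%. Rplp0 (38.2%), Rps2 (44.7%) and Rpl29 (36.6%) are among them, so some of their reads were shared out in most libraries. The percentage does not show how many reads were shared, so it does not measure the uncertainty of a level. Rpl24 had 80.5% whole values, Rpl35 69.1% and Rpl3 68.3%.

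The genes that the symbol pattern misses also lay mostly above 0. None of the 8 was called in the pools (edgeR, adjusted p 0.110 to 0.883), against 14% of all genes called higher and 10.8% lower. All 8 had a log2 difference above 0, with a median of 0.39. Of all 13509 genes tested, 6867 were above 0. Rpsa, the laminin receptor of the small subunit, was at 120 ± 8.71 CPM in the SNT pools and 93.0 ± 24.5 CPM in the control pools (SD, n = 3). Fau, made as a fusion with a ubiquitin-like protein, differed by 0.40 ± 0.18 (SE). In neurons 8 of 8 were above 0 at day 3 and 7 of 8 at day 7, with Rpl7l1 the exception at -0.42.

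The elongation factors carry the aminoacyl-tRNA and move the ribosome along the message. Of 8 genes with Eef symbols, 6 were called higher in the pools (14% of all genes) and 0 lower (10.8%), with a median of 0.56. The 8 include Eef2k, a kinase and not itself such a factor, which is among the 6 called. Medians were 0.26 in day-3 and 0.091 in day-7 neurons, where 7 and 4 of the 8 were above 0. Eef1b2, the exchange factor of eEF1A, was at 278, 374 and 337 CPM in the SNT pools and 115, 153 and 116 CPM in the control pools, higher by 1.35 ± 0.17 (adjusted p = 2.08e-08, edgeR), with ratios of 0.91 and 0.63 in day-3 and day-7 neurons. Eef2, the translocase, rose from 699 ± 64.8 to 961 ± 37.9 CPM (adjusted p = 0.00387, edgeR), and Eef2k, the kinase that inhibits it, from 8.16 ± 2.78 to 30.03 ± 14.8 CPM (adjusted p = 0.00191, edgeR). Of the 12 other TOP messages, 3 of which are elongation factors counted above, 5 were called higher and 0 lower, with Tpt1 and Pabpc1 beside the 3 factors, and the medians were 0.33 in the pools, 0.18 at day 3 and 0.19 at day 7.

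Ribosome assembly genes make and join the parts of the ribosome in the nucleolus. Of 39, 9 (23.1%) were called higher and 1 (2.56%) lower, against 14% and 10.8% of all genes, with a median of 0.38 in the pools, 0.15 in day-3 and -0.10 in day-7 neurons. Rrp12, which acts in the export of subunits, was at 59.3, 58.1 and 52.2 CPM in the SNT pools and 18.2, 10.2 and 21.8 CPM in the control pools, higher by 1.79 ± 0.31 (adjusted p = 2.28e-05, edgeR). Nucleolin (Ncl) rose from 112 ± 9.32 to 212 ± 18.8 CPM and Nip7 from 26.6 ± 11.4 to 73.7 ± 12.2 CPM (adjusted p = 5.08e-05 and 0.000119, edgeR). The gene called lower, Rrn3, an initiation factor of RNA polymerase I, fell from 137 ± 9.34 to 96.7 ± 9.40 CPM (adjusted p = 0.0390, edgeR).

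Initiation factors were taken by symbol, as all genes named Eif and a number except Eif4ebp, whatever their role. Of these 51 genes 11 (21.6%) were called higher and 4 (7.84%) lower, against 14% and 10.8% of all genes. Their medians were 0.15 in the pools, 0.20 at day 3 and -0.094 at day 7. Eif6, which keeps the subunits apart, rose from 90.4 ± 5.21 to 179 ± 13.96 CPM and Eif2a fell from 75.9 ± 26.9 to 30.97 ± 7.71 CPM (adjusted p = 3.41e-05 and 0.000526, edgeR). Of 18 regulators around mTOR and Myc, 2 (11.1%) were called higher, below the 14% of all genes, and 0 lower (10.8%). Eif4ebp1, the mTOR target that holds back cap-dependent initiation, was at 24.96, 26.7 and 30.3 CPM in the SNT pools and 5.19, 7.92 and 1.68 CPM in the control pools (log2 2.36 ± 0.47, adjusted p = 0.000138, edgeR), and its ratio was 1.39 in day-3 and -0.50 in day-7 neurons. Larp1 rose from 68.8 ± 13.6 to 104 ± 8.94 CPM (adjusted p = 0.0339, edgeR), with ratios of -0.53 and 0.28 in the neurons of the 2 days. Mtor itself had no call (adjusted p = 0.0988, edgeR).

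The ribosome of mitochondria is encoded by separate nuclear genes. Of these 77 genes 5 (6.49%) were called higher and 2 (2.60%) lower, both shares below the 14% and 10.8% of all genes. In day-3 and day-7 neurons 35 and 21 of them (45.5% and 27.3%) had a ratio above 0, against 46.9% and 47.1% of all genes and 60 and 61 of the cytosolic members. Their medians were 0.041 in the pools, -0.028 at day 3 and -0.14 at day 7. Subunits of the respiratory chain, which have similarly short messages, had medians of 0.056, -0.021 and 0.20, with 6 (8.33%) called higher and 2 (2.78%) lower of 72. At day 7 the cytosolic members (0.19) and the respiratory chain (0.20) therefore had like medians, and at day 3 they did not.

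**Figure D5:**
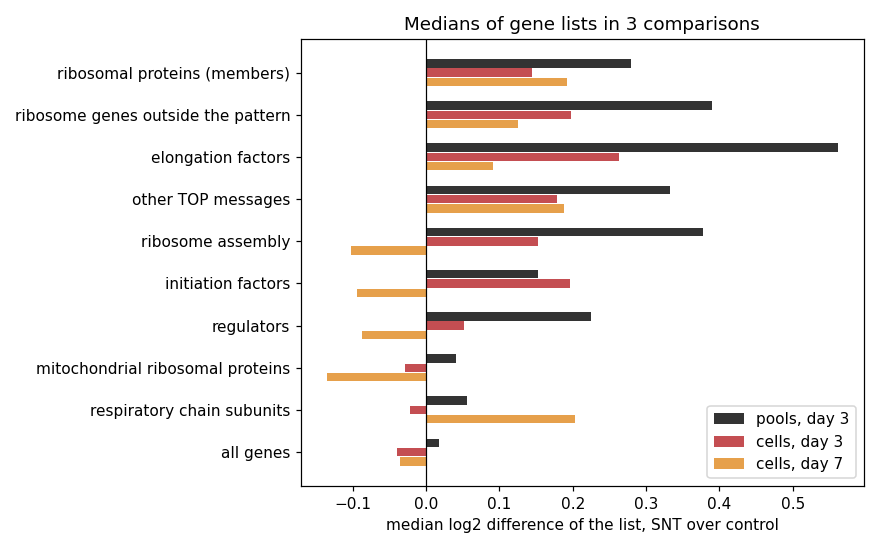
Median log2 difference, SNT over control side, of each gene list (y axis) in the pools and in day-3 and day-7 neurons. The ribosomal protein genes are above 0 in all 3 comparisons (0.28, 0.14 and 0.19), and assembly and initiation genes are above 0 at day 3 and below 0 at day 7.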

How the data were processed

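The authors aligned reads to mm9 with Bowtie2 and estimated expression with RSEM after base calling in CASAVA 1.8.2. The deposited tables are named TPM but hold expected counts, and these were scaled to CPM, not to length. The members and gene lists were chosen with earlier results of these data known. Pooled counts were rounded and tested with edgeR 4.0.16 in R 4.3.3 (quasi-likelihood, TMM, genes of a mean of at least 1 CPM, Benjamini-Hochberg adjustment), and DESeq2 1.42.0 and limma 3.58.1 were alternatives. In counts simulated for the pooled comparison over real means, 56 of 100 genes changed by 1 on the log2 scale and 10 of 100 changed by 0.5 were called. Cells were compared by log2 of mean CPM + 1 in Python 3.11.15, without outliers and without a test. Members were named by size of difference (at least 50 CPM in cells) and by role. Some genes that this rule names are not reported here. Rps3a1 was added after its values were seen, as were the pathway genes named singly. Promoters came from RefSeq (GRCm38.p6) and lengths from GENCODE M21. Erythrocyte and immune markers were near 0 in most libraries, with a median sum of at most 10.8 and 3.48 CPM in a group and a highest single cell at 4670 and 341 CPM, both on the SNT side of day 7.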

Additional observations from a re-analysis of the deposited data

How the results depend on the processing

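The count of 14 members called higher in the pools depended on the method. It was 6 with library size alone, 6 with DESeq2, 9 with limma-trend, 5 after thinning to the smallest library and 2 with a log2 difference beyond 1 required. With each library left out in turn it ran from 5 to 21, at 7 without control library 1, 21 without control library 2, 5 without control library 3, 17 and 11 without SNT libraries 1 and 2, and 5 without SNT library 3. The cause was not tested, beyond the smaller number of libraries. The count of members called lower was 0 in all these fits except with library size alone, where it was 1. The members' median log2 difference stayed above 0 throughout, from 0.12 (library size alone) to 0.43 (one library left out). Library numbers did not pair the sides (r of deviations 0.059, -0.016 and -0.0067), and a replicate block gave 14 higher, 0 lower and a median of 0.28. Calls of Rplp0, Rpl24, Rpl35, Rps2 and Rps4l held under every alternative run except the required log2 difference beyond 1, under which Rps4l and Rpl26 were called. In cells, the summed share, the median ratio and the count above 0 kept their direction under every alternative, and no outliers had been removed at day 7. The smallest pooled library held 563462 counts, and the part of depth in these changes was not tested.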
